A study of Homo sapiens with 15 samples.

Results

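Immediate early genes are transcribed within minutes of a stimulus, without new protein synthesis. The 10 taken here were FOS, FOSB, FOSL2, JUN, JUNB, JUND, EGR1, ATF3, IER2 and DUSP1, and their promoters were followed through 5 time points of androgen treatment in LNCaP, an established prostate cancer cell line that carries the androgen receptor. Loops were given to a gene where at least 1 bp of a 1 kb anchor lay within 2.5 kb of the start of its canonical transcript, each pair of anchors counted once. This gave 435 of the 505995 different loops of the series, and the 10 promoters are 10 of 16251 protein-coding promoters that had a loop. The choice of loops used the position of the anchors and no measured value. No loop joined 2 of them.

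HiChIP counts read pairs from DNA ends that were ligated because they touched in fixed chromatin, after an antibody has enriched the fragments for a histone mark. The cells were held for 3 days in charcoal-stripped serum, which is poor in steroids, and then received ethanol vehicle (the 0 m group) or 10 nM dihydrotestosterone (DHT). DHT was given for 30 m or 4 h in the early groups and for 16 h or 72 h in the late ones. The marks were H3K27ac, found at active enhancers and promoters, with 2 labelled replicates per time point, and H3K4me3, found at active promoters, with 1, which is 15 samples in all. Vehicle was sampled only at 0 m, so the time spent in culture and the treatment cannot be told apart at the later time points. LNCaP is 1 cell line. Its luminal prostate identity was seen in the loops of the promoters of KRT8 (43), KRT18 (68), FOLH1 (59) and HOXB13 (9), against 0 at the basal genes KRT5 and TP63, although the mesenchymal gene VIM had 16.

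The tables held 1 contact value per loop, mark and time point. Hence no value below has a replicate error, no test between conditions was possible, and no p-value is given. Contact is a scaled signal (TMM, applied within each mark by the authors), and every value was a whole multiple of what 1 read pair is worth, so that read pairs were recovered. Over all loops the H3K27ac tables held between 2475168 (0 m) and 4308555 (30 m) read pairs. For H3K4me3 the lowest was 2153262 (30 m) and the highest 10675614 (4 h). The deepest H3K27ac table was thus the one at 30 m and the shallowest the one at 0 m, and the part of depth in the differences below was not tested. Intervals in square brackets are exact 95% intervals of a log2 ratio of summed contact and cover counting error only. A HiChIP contact needs both the mark and the proximity, and more of the one or of the other, in more or fewer cells, cannot be told apart.

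FOS, FOSB and FOSL2 encode Fos proteins, and JUN, JUNB and JUND encode Jun proteins. A Fos protein pairs with a Jun protein to form the transcription factor AP-1. ATF3 is a related leucine zipper protein induced by stress, EGR1 is a zinc finger transcription factor, IER2 is a nuclear protein of the early growth response, and DUSP1 is a phosphatase that switches off MAP kinases and so the signal that induces the others. Growth factor signals reach many of these promoters through MAP kinases, ELK factors and the serum response factor SRF, which binds the CArG box, and through CREB, which binds the cyclic AMP response element (CRE).

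Of the 10 promoters, 5 held a CArG box or a CRE in the 350 bases before the start, and these are shown because they carry the sites that this class of genes is known for. The searches took in both strands. The CArG box, searched by its name, was held by EGR1 (2 matches), FOS (1) and FOSB (1), against 1.7% of 19856 promoters. The CRE, TGACGTCA, was held by FOSB, JUND and DUSP1 (1 match each), against 2.68%. The AP-1 site TGACTCA was found in none of the 10 and in 4.16% of all promoters, and the EGR site, GCGTGGGCG or its variant GCGGGGGCG, was found in none of the 10 and in 9.34%. The androgen response element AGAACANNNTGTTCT was found in 0 of the 19856 windows, so that it separates no promoter here. Each sequence is from GRCh37 (hg19), written 5′ to 3′ on the gene's strand and running from base 350 to base 51 before the start, with the matches in capitals. EGR1 lies at chr5:137800818-137801117 (+), FOS at chr14:75745181-75745480 (+), FOSB at chr19:45970904-45971203 (+), JUND at chr19:18392483-18392782 (−) and DUSP1 at chr5:172198249-172198548 (−).
EGR1: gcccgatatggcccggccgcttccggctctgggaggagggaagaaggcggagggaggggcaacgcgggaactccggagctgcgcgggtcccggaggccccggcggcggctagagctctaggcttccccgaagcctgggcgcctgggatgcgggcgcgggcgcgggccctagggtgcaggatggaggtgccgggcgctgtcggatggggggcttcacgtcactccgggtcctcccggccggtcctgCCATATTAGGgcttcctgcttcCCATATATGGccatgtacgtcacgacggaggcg
FOS: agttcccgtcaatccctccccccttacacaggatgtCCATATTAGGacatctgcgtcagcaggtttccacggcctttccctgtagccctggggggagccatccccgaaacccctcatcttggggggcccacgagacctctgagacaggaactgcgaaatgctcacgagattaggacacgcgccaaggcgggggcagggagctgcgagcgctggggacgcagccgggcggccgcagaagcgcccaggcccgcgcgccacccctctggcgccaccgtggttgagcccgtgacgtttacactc
FOSB: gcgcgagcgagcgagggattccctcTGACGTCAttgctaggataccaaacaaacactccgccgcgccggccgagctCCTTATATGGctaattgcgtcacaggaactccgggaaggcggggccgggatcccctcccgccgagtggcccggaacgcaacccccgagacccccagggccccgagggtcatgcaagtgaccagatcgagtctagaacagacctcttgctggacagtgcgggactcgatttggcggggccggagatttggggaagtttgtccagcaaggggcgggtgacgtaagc
JUND: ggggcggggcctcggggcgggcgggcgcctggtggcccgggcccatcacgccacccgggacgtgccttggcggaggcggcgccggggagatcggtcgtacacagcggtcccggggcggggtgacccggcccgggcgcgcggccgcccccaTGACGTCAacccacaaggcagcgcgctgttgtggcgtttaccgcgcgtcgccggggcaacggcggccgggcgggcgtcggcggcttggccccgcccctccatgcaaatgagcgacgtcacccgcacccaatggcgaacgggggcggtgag
DUSP1: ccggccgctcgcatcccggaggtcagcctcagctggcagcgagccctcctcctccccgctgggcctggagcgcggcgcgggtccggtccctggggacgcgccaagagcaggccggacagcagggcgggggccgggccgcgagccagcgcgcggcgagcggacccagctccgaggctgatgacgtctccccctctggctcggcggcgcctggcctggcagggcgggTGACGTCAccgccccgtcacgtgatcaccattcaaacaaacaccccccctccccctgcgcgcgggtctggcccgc
The last base of the match nearest to the start lay 74 bases before it in EGR1, 305 in FOS, 265 (CArG box) and 318 (CRE) in FOSB, 193 in JUND and 118 in DUSP1. A match is a run of letters and not a measured site, and no binding of SRF or CREB was measured here.

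The members differed widely in how many loops they had. JUN (chr1, start 59249719, minus strand) had 95, more than 98.5% of the promoters with loops, and IER2 (chr19, 13261225, plus) had 73. EGR1 (chr5, 137801168, plus) had 59, FOSL2 (chr2, 28615725, plus) 57, JUND (chr19, 18392432, minus) 47, ATF3 (chr1, 212782103, plus) 39 and DUSP1 (chr5, 172198198, minus) 26. FOS (chr14, 75745531, plus) had the fewest, 8, after FOSB (chr19, 45971254, plus) with 13 and JUNB (chr19, 12902300, plus) with 18. The median over the 10 was 43 loops, against 20 over all promoters with loops. Of the 435 loops, 111 were called for H3K27ac alone, 193 for H3K4me3 alone and 131 for both marks. The share called for both was 30.1%, against 18.7% over the loops of all promoters, and the median length was 305000 bp, against 225000 bp. The partner anchor lay at another promoter in 26 loops of IER2, 23 of JUND and 20 of EGR1. For JUN, for all its loops, this held in 4, and for FOS in 1. The window of IER2 shares an anchor with the promoter of STX10, so that their loops are not separate.

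**Figure D1:**
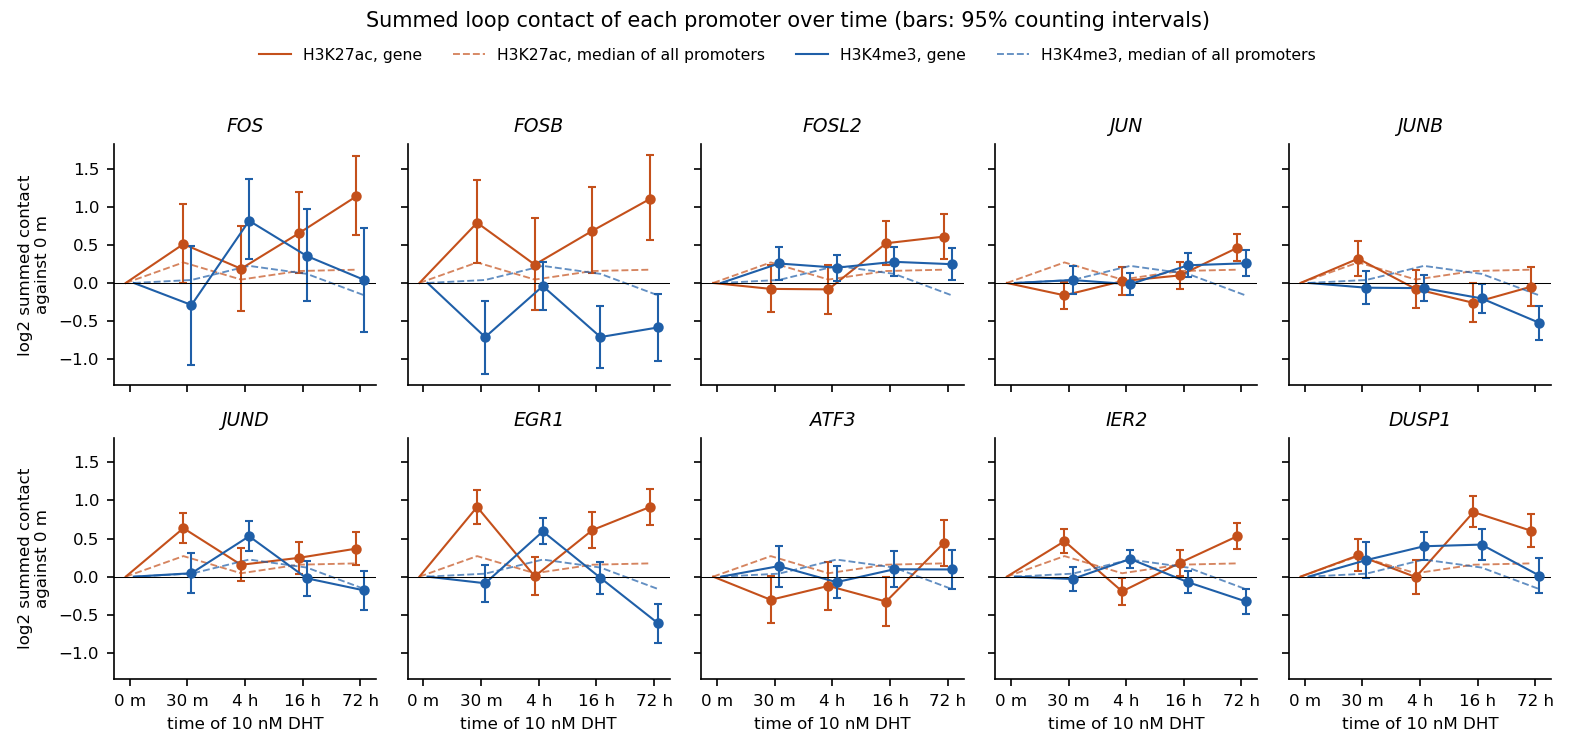
Log2 difference of summed contact from 0 m (deposited TMM scale) for each of the 10 promoters against the time of DHT treatment. H3K27ac and H3K4me3 are separate solid lines, with exact 95% counting intervals as bars. Dashed lines give the median of all promoters. H3K27ac contact of EGR1 was 125.8 at 30 m between 66.7 at 0 m and 66.9 at 4 h, while that of JUN and ATF3 was lower at 30 m than at 0 m.

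The first comparison was of 30 m of DHT, when immediate early genes are classically switched on, with vehicle. Over the 435 loops together, H3K27ac contact was 682 at 0 m and 866 at 30 m, a log2 difference of 0.34 [0.27, 0.42] from 2321 and 4813 read pairs. At 4 h it was 671, and 30 m stood above 4 h by 0.37 [0.30, 0.43]. The comparisons with 0 m and with 4 h share the 30 m table. The difference was not one of these genes only: over the 12051 promoters with at least 50 read pairs the median difference between 30 m and 0 m was 0.27, with quartiles of -0.01 and 0.51, and that between 30 m and 4 h was 0.21. Scaling every table to the same total over all loops moved all promoters alike, by -0.09 for 30 m against 0 m. A difference of 0.5 on the log2 scale or more, the fold used to call a gene, was passed by 4 of the 10 (EGR1, FOSB, JUND and FOS), with a background of 26.4% of all promoters, and 0 members were lower by as much, with a background of 4.58%. With equal totals FOS (0.42) no longer passed the fold. Beyond the median of all promoters, or with at least 200 read pairs, 2 members passed it, and beyond the median of promoters of like G and C content 1 did. Against 4 h, 3 members were higher by the same fold (EGR1, IER2 and FOSB; background 19.8%) and 0 were lower (5.52%), and beyond the median of all promoters only EGR1 was higher. Counts of 4 and 3 in 10 are near what those shares give for any 10 promoters. The members ranged from -0.30 (ATF3) to 0.92 (EGR1), with a median of 0.39. Of the 10, the intervals of EGR1, JUND and IER2 lay above the all-promoter median at 30 m against 0 m and those of FOSL2, JUN and ATF3 below it.

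**Figure D2:**
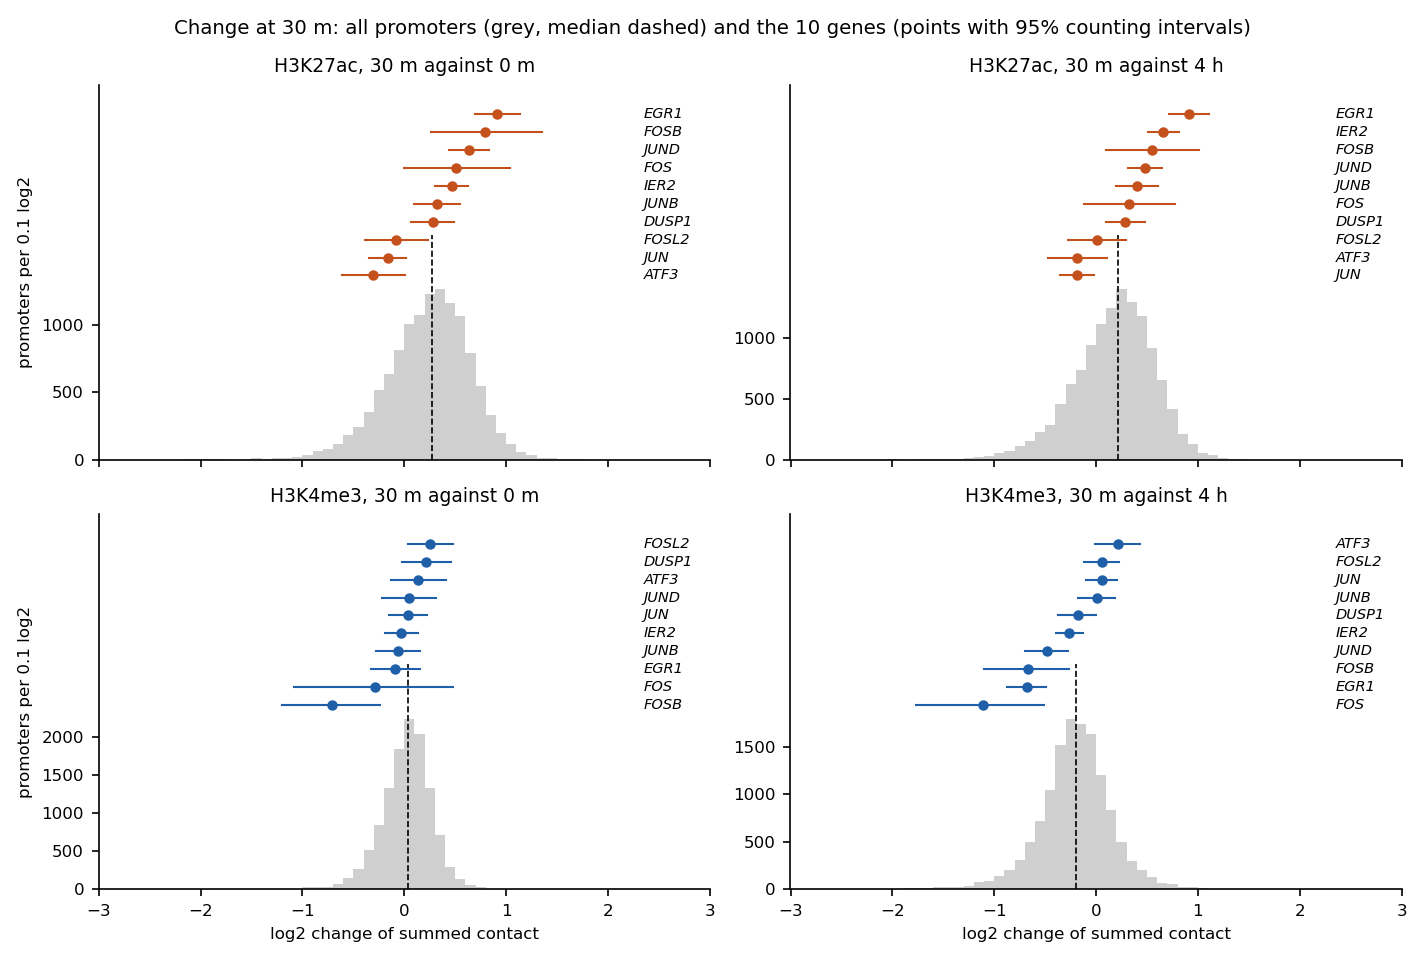
Distribution of the log2 difference in summed contact between 30 m and 0 m, and between 30 m and 4 h, over all promoters with at least 50 read pairs (histogram, log2 units on the x axis), with the 10 genes marked, for H3K27ac and H3K4me3. EGR1 stood at percentile 96.6 for H3K27ac at 30 m against 0 m and ATF3 at percentile 9.32.

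EGR1 had the largest H3K27ac difference of the 10 at 30 m. Its summed H3K27ac contact was 66.7 under vehicle and 125.8, 66.9, 101.9 and 125.8 at the 4 times of DHT in order. It was high at 30 m, back at the vehicle level at 4 h and high again at the last time points. The difference of 30 m from 0 m was 0.92 [0.70, 1.14], at percentile 96.6 of all promoters, and that from 4 h was 0.91 [0.72, 1.11], at percentile 98.2. Its strongest loop, 20.3% of its H3K27ac contact, was one of 5 kb to an anchor between protein-coding genes just upstream (chr5:137797001-137798000), with contacts of 11.2, 19.3, 17.1, 18.9 and 32.6 in time order. At 30 m this loop stood above 0 m by 0.79 [0.24, 1.36] but above 4 h by only 0.17 [-0.26, 0.61]. The other 3 loops with at least 50 read pairs were looked at after their values were seen. That of 80000 bp, whose partner lay between genes 3076 bp from ETF1, had contacts of 3.8, 11.0, 5.1, 7.0 and 7.4. That of 15000 bp, whose partner lay 4343 bp from REEP2, had 6.8, 14.4, 6.4, 11.3 and 12.4, and that of 25000 bp downstream had 9.1, 16.0, 7.1, 14.9 and 11.1. All of these were highest at 30 m and had lower contact at 4 h, with differences of 30 m from 0 m of 1.52 [0.64, 2.51], 1.09 [0.41, 1.83] and 0.81 [0.21, 1.45]. H3K4me3 contact of EGR1 took another course, with 92.5 under vehicle and then 87.1, 139.6, 91.4 and 60.5. Its highest H3K4me3 value was the one at 4 h, the deepest table.

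JUND, which is made in most cells at all times, had H3K27ac contacts of 87.9, 136.6, 97.9, 104.2 and 113.4 in time order, the order used for every gene that follows. The value at 30 m was the highest of the 5 and stood above the next by more than its counting interval. Its difference from 0 m was 0.64 [0.44, 0.83] and that from 4 h was 0.48 [0.31, 0.65]. The loop with most contact joined JUND to the promoter of LSM4, which encodes a protein of RNA splicing and decay, over 40 kb, with contacts of 13.2, 24.1, 16.0, 16.3 and 21.6. At 30 m it was higher than at 0 m by 0.87 [0.37, 1.39].

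IER2 had 134.9, 186.2, 117.9, 152.9 and 195.0, and so was lower at 4 h than at any other time. Its difference at 30 m was 0.47 [0.31, 0.63] from 0 m, at percentile 70.3 and under the fold, and 0.66 [0.51, 0.81] from 4 h, at percentile 90.9. The largest share of its H3K27ac contact, 23.4%, lay in a 10 kb loop to an anchor downstream, between protein-coding genes, with 24.7, 47.0, 23.7, 38.9 and 49.7. That loop was 0.93 [0.57, 1.30] higher at 30 m than at 0 m and 0.99 higher than at 4 h. A loop of 35 kb to the shared promoter of TRMT1 and NACC1 had 15.0, 22.9, 11.1, 19.3 and 20.8. The third, of 135 kb to an intron of the transcription factor gene NFIX, stayed between 7.3 at 0 m and 10.8 at 72 h.

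JUNB, often a brake on JUN in growth control, had 70.2, 87.6, 66.4, 58.6 and 67.9, again highest at 30 m. The difference from 0 m was 0.32 [0.09, 0.55], close to the median of all promoters, but it ran from 0.08 to 0.57 under the alternative settings. Of its H3K27ac contact, 36.7% was in a 15 kb loop to the promoter of HOOK2, which encodes a linker of cargo to microtubules, with 24.1, 32.2, 25, 21.2 and 26.1.

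FOS and FOSB, the Fos genes with the sharpest induction by serum, had few read pairs here (438 and 403 of H3K27ac over the 5 time points) and wide intervals. FOS had H3K27ac contacts of 13.5, 19.3, 15.4, 21.2 and 29.7, with 72 h the highest. The difference of 30 m from 0 m was 0.51 [-0.00, 1.04], which just reached 0, and that of 72 h from 0 m was 1.14 [0.63, 1.66], at percentile 97.9. Against 4 h, the FOS difference at 30 m was 0.32 [-0.12, 0.78], and its direction turned with the loops taken. It was 0.60 for loops under 20 kb, -0.36 for those of 100 kb or more, and -0.37 over the H3K27ac set of loops only. A single 5 kb loop to an anchor just upstream (chr14:75742001-75743000) carried 56.5% of the H3K27ac contact of FOS, with 6.2, 9.9, 6.8, 12.5 and 20.5. FOSB had 11.8, 20.3, 13.9, 18.9 and 25.3, the same order as FOS except that 30 m came second. Its difference at 30 m was 0.79 [0.26, 1.35] and at 72 h 1.10 [0.56, 1.67]. The strongest FOSB loop ended in an exon of ERCC1, a DNA repair gene next to it, 10 kb away, with contacts of 4.1, 7.6, 4.3, 6.6 and 6.8.

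FOSL2, a Fos gene with slower and longer induction, had no such value at 30 m. Its contacts were 43.5, 41.2, 41.0, 62.4 and 66.3, level through 4 h and higher at 16 h and 72 h. The difference of 30 m from 0 m was -0.08 [-0.38, 0.23] and that of 72 h was 0.61. No loop held more than 4.6% of its H3K27ac contact. The strongest reached an intron shared by BABAM2 and MRPL33 over 480 kb, with contacts of 2.6 or less at every time but 16 h (3.8), and in H3K4me3 the strongest reached the promoter of BABAM2 and RBKS over 505 kb.

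JUN and ATF3 were the members with the lowest differences at 30 m. JUN had 126.1, 112.6, 128.2, 135.0 and 173.7, lowest at 30 m and highest at 72 h. The difference of 30 m from 0 m was -0.16 [-0.34, 0.02], at percentile 15.7, that from 4 h -0.19 [-0.35, -0.02], and that of 72 h from 0 m 0.46. Its contact was spread thinly. The first loop, of 5 kb, ended in an exon of JUN itself and held 8.63%, with 8.5, 8.6, 11.3, 13 and 16.8, and the next reached the promoter of FGGY, a carbohydrate kinase gene, over 515 kb, with 5.0, 7.4, 5.8, 11.0 and 13.2. The FGGY loop was higher at 72 h than at 0 m by 1.40 [0.58, 2.28]. The third, of 290 kb, ended between protein-coding genes and was highest at 4 h (7.7).

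ATF3 had 45.5, 36.9, 41.9, 36.3 and 61.8, and so was lower at 30 m and 16 h than at 0 m. Its difference at 30 m was -0.30 [-0.61, 0.01], at percentile 9.32. The strongest H3K27ac loop, of 15 kb, ended in an intron of ATF3 and had 4.1, 4.3, 4.1, 4.9 and 6.1. One of its loops, of 90000 bp, joined it to the promoter of BATF3, which encodes another leucine zipper partner of Jun proteins. This was the single loop between a member and a gene of the list of partners and upstream factors, and its 2, 7, 3, 5 and 6 H3K27ac read pairs are too few to order the time points.

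DUSP1 was the one member with its highest H3K27ac value at 16 h. Its contacts were 82.0, 99.5, 81.6, 147.6 and 124.5, with a modest value at 30 m (0.28 [0.07, 0.49], percentile 51.0) and a larger one at 16 h (0.85 [0.65, 1.05], percentile 92.4). A 5 kb loop to an anchor between genes downstream (chr5:172192001-172193000) held 52.5% of the contact, with 33.2, 45.9, 37.2, 88.7 and 76.0. This loop was 1.42 [1.12, 1.73] higher at 16 h than at 0 m and 1.20 higher at 72 h. The next loops, of 135 kb to an exon and of 65 kb to the promoter of ERGIC1, which encodes a membrane protein of the secretory pathway, stayed between 9.2 and 15.9 at all times.

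Of the later time points, 72 h stood further from vehicle than 30 m did, and 4 h and 16 h did not. At 4 h, the H3K27ac contact of the 10 promoters together was level with 0 m (-0.02 [-0.10, 0.05]), and 0 members were higher or lower by the fold (background 5.9% higher and 1.93% lower). At 16 h the difference was 0.30 [0.22, 0.37], and 5 members were higher (DUSP1, FOSB, FOS, EGR1 and FOSL2; background 23.4%) and 0 lower (10.8%). With equal totals in every table the pooled difference at 16 h was 0.052, and 1 member (DUSP1) was higher and 2 (ATF3 and JUNB) lower. The largest pooled difference came at 72 h, with 0.53 [0.45, 0.60] against an all-promoter median of 0.17. Of the members, 6 were then higher (FOS, FOSB, EGR1, FOSL2, DUSP1 and IER2; background 23.5%) and 0 lower (7.81%), and 9 of the 10, all but JUNB, lay above the median. With equal totals the pooled difference was 0.36 and 3 members were higher (FOS, FOSB and EGR1). On the deposited scale 72 h was the highest H3K27ac time point for 7 members, 30 m for JUNB and JUND, and 16 h for DUSP1. The value at 72 h was above that at 30 m by 6.5e-05 for EGR1 and 0.07 for IER2. Equal totals lower 72 h (-0.17) more than 30 m (-0.09), and this count was not repeated with them. Over the 10874 promoters with at least 200 H3K27ac read pairs, 20.7% were highest at 72 h, 36.5% at 30 m and 21.7% at 16 h. The interval of the ratio of the highest to the next time point lay above 0 for ATF3, DUSP1, FOS, JUN, JUNB and JUND, and reached below 0 for EGR1, FOSB, FOSL2 and IER2. Equal totals moved all promoters by -0.07 at 4 h, -0.25 at 16 h and -0.17 at 72 h.

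H3K4me3 contact of the same loops did not show the 30 m pattern of H3K27ac. The 10 together had 910.1 at 0 m and 928 at 30 m, a difference of 0.03 [-0.05, 0.10] against an all-promoter median of 0.04. No member was higher by the fold (background 1.87%) and 1, FOSB, was lower (2.45%). FOSB had 31.3, 19.1, 30.4, 19.1 and 20.9, and its difference of -0.71 [-1.20, -0.23] at 30 m was at percentile 0.604, while its H3K27ac contact was higher. FOSL2 was the member with the highest value, 0.26 [0.04, 0.47].

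Against 4 h, the pooled H3K4me3 contact at 30 m was lower by the same amount as all promoters were (-0.20 [-0.26, -0.14], median -0.20), and scaling to equal totals took it to 0.0048. By the fold, 3 members were lower (FOS, EGR1 and FOSB; background 16.5%) and 0 higher (2.44%), and with equal totals only FOS was lower. At 4 h against 0 m, 3 were higher (FOS, EGR1 and JUND; background 20.7%) and 0 lower (3.64%), with a pooled difference of 0.22 [0.17, 0.28] beside a median of 0.22. With equal totals only FOS was higher by the fold. FOS, with 10.4, 8.54, 18.4, 13.3 and 10.7, and EGR1 stood furthest above that median. At 16 h 1 member was lower (FOSB; background 0.928%) and 0 higher (6.53%). At 72 h 3 were lower (EGR1, FOSB and JUNB; background 10.8%) and 0 higher (2.25%), and with equal totals 0 were lower. EGR1 was then at -0.61 [-0.87, -0.36], percentile 4.83, and JUNB at -0.52 [-0.75, -0.30]. JUN at 72 h had 0.26 [0.09, 0.43], at percentile 92.3, with H3K4me3 contacts of 142.7, 146.5, 141.1, 167.6 and 170.7, and so was high in both marks at the end. The H3K4me3 table at 4 h was the deepest and that at 30 m the shallowest, and the equal-total scale moved all promoters by 0.20 at 30 m against 4 h, by -0.22 at 4 h against 0 m, by -0.14 at 16 h and by 0.13 at 72 h.

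Single loops were read only where the pair of tables held at least 50 read pairs. At 30 m against 0 m, 27 loops of the 10 promoters reached this in H3K27ac, and 26 of them had more contact at 30 m and 1 had less. For 11 the interval lay above 0 and for 0 below. Most loops of any promoter were higher in this comparison: of the 12570 promoter loops with as many read pairs, 81.9% had more contact at 30 m, and the interval lay above 0 for 34.1% and below for 2.1%. EGR1 gave 4 of these loops, all with intervals above 0, and IER2 gave 6, all higher and 3 with intervals above 0. In H3K4me3, 18 loops reached the minimum, with 8 higher and 10 lower (58.4% higher over all promoter loops), and 0 intervals above and 1 below 0 (7.59% and 2.92% over all). Against 4 h the H3K27ac count was 26 higher and 4 lower of 30, with 73.7% higher over all promoter loops. The H3K4me3 count was 31 higher and 45 lower of 76, with 32.5% higher over all. Loops of 1 promoter share its anchor and its reads, so they are not separate measurements of the treatment.

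**Figure D3:**
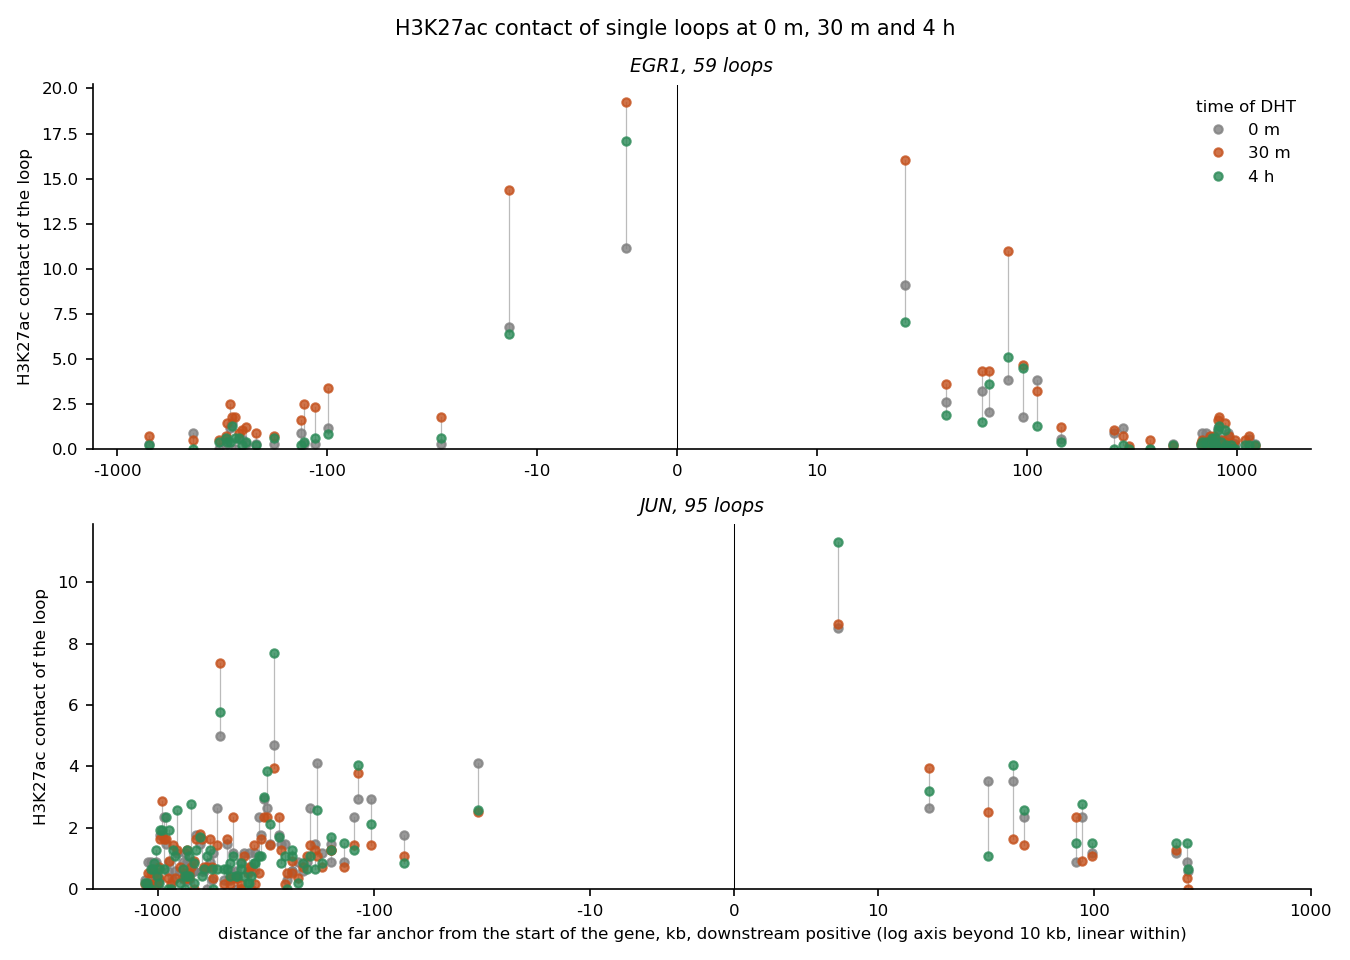
H3K27ac contact of the single loops of EGR1 and JUN at 0 m, 30 m and 4 h, against the distance of the partner anchor from the start site in kb (downstream positive). All 59 loops of EGR1 and all 95 of JUN are shown, including those with fewer than 50 read pairs.

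Short and long loops were then compared, as short contacts are the strongest. At 30 m against 0 m the H3K27ac difference over the 10 promoters was 0.55 [0.40, 0.69] for loops under 20 kb, 0.39 for those of 20 to 100 kb and 0.19 [0.09, 0.30] for longer ones. The loops of all promoters had the same order, with 0.45, 0.25 and 0.09. Not every member followed it. EGR1 had 0.91, 1.0 and 0.84 in the 3 classes, JUND had 0.54, 0.70 and 0.59, and FOSB, from few read pairs, had 0.51, 2.23 and 0.88.

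Where a gene lies in the genome moved with the result. At 30 m against 0 m, the median H3K27ac difference over promoters of chromosome 19, which holds FOSB, JUNB, JUND and IER2, was 0.50, against 0.24 for chromosome 1, 0.19 for chromosome 2, 0.19 for chromosome 5 and 0.24 for chromosome 14. On chromosome 19, 49.2% of promoters were higher by the fold. It also moved with base composition: in 5 equal classes of promoters by the share of G and C within 2.5 kb of the start, the median was 0.02 in the lowest class and 0.20, 0.30, 0.37 and 0.37 in the others. All members were in the highest class but FOSB, which was in the next, and they held 56.0% to 64.9% G and C. Of the 10, 5 lay above the median of their own class at 30 m against 0 m. The part of chromosome and of base composition in the result was not tested.

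Promoters within 1 Mb that shared no loop with the gene gave a nearer comparison. Promoters joined to it by a loop, such as FGGY for JUN, were left out, so these neighbours are not all the promoters nearby. EGR1 was above all 3 of its neighbours, whose median was -0.03, and DUSP1 was above 4 of 5 (median -0.08). FOS was above 19 of 22 (median 0.17), FOSB above 23 of 30 (0.48) and JUND above 20 of 28 (0.41). IER2, though high, was above only 12 of 32 (0.68) and JUNB above 8 of 45 (0.56), so that most promoters around them were higher still. FOSL2 was above 1 of 10 and ATF3 above 1 of 3, and JUN had 1 neighbour, which stood higher. In H3K4me3, FOSB was below all 30 of its neighbours.

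**Figure D4:**
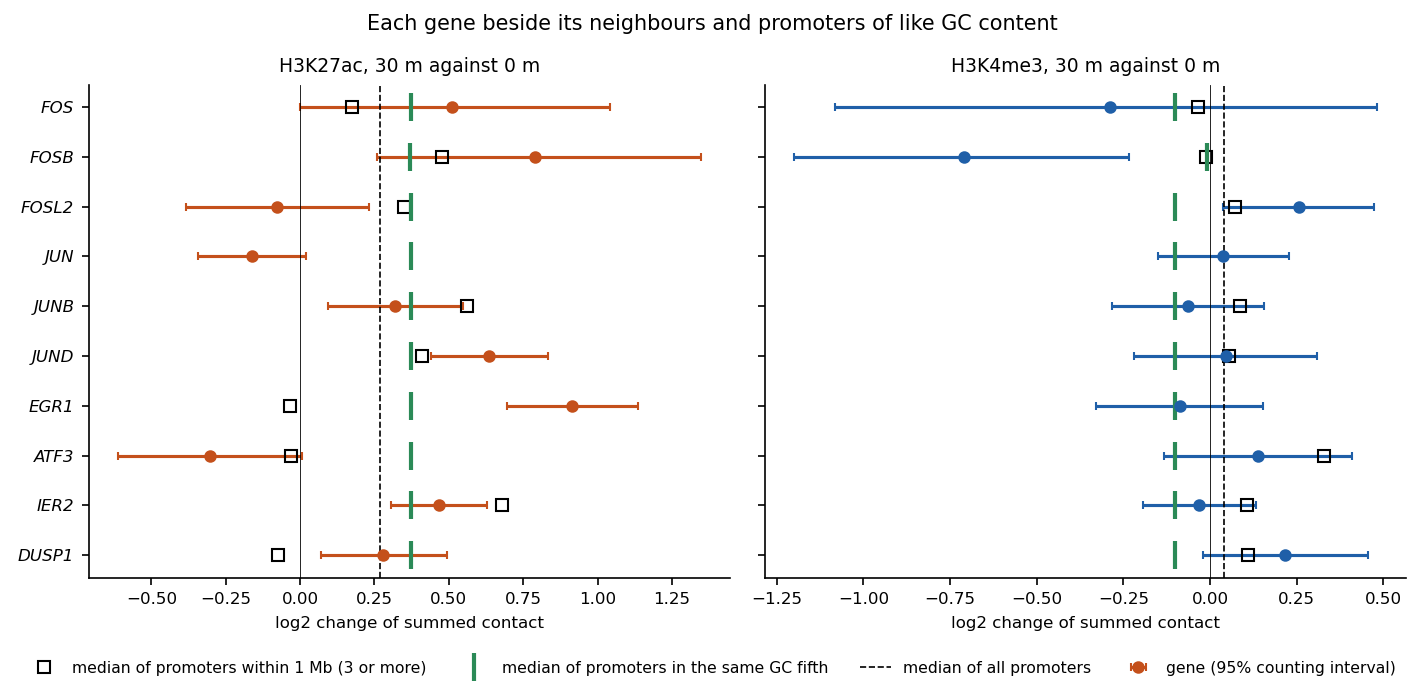
Log2 difference in contact between 30 m and 0 m for each of the 10 genes (points, with 95% counting intervals), for H3K27ac and H3K4me3. Squares give the median of the promoters within 1 Mb that shared no loop with the gene, where there were 3 or more. Ticks give the median of the same G and C class and the dashed line that of all promoters. In H3K27ac, EGR1 lay above all 3 such neighbours and IER2 above 12 of 32.

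Other genes of the response were taken in lists. Of 27 other immediate early genes, such as EGR2, the NR4A receptors, KLF factors and ZFP36, 26 had loops, all but SGK1. In H3K27ac at 30 m against 0 m, 23 of them reached 50 read pairs, with 5 higher by the fold (KLF2, EGR2, ZFP36, PPP1R15A and NR4A1) and 0 lower. The share higher was 21.7%, near the 26.4% of all promoters, of which 4.58% were lower, and the median was 0.18 against 0.27. ZFP36, which degrades messenger RNAs with AU-rich elements, and PPP1R15A, which restores translation after stress, had the highest values among the 16 with at least 200 read pairs, 0.80 each, and both lie on chromosome 19. NFKBIZ, a regulator of NF-kappaB (-0.43), and CCN1, a secreted matrix protein (-0.37), had the lowest. In H3K4me3 0 were higher and 0 lower, with a median of 0.00, near the 1.87%, 2.45% and 0.04 of all promoters. Among the 17 with at least 200 H3K4me3 read pairs, KLF6 (0.25) and PPP1R15A (0.20) were the highest and MAFF (-0.43) and FOSL1 (-0.32), a further Fos gene, the lowest.

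The second list held 24 AP-1 partners and factors upstream of these promoters. In H3K27ac at 30 m against 0 m, all 24 reached 50 read pairs, with 7 higher by the fold and 2 lower (MAPK8 and ELK3, named after their values were seen). The share higher was 29.2% and the median 0.30, near the 26.4% and 0.27 of all promoters, of which 4.58% were lower. MAP2K2, a kinase of the MAP kinase cascade on chromosome 19, had the highest value of those with at least 200 read pairs (1.01), followed by SRF (0.83), and JDP2 (-0.07) and ATF2 (0.04), both partners of Jun proteins, had the lowest. In H3K4me3 0 were higher and 0 lower, with a median of 0.01, again near the values of all promoters (1.87%, 2.45% and 0.04). Among the 19 with at least 200 H3K4me3 read pairs, CREM (0.41) and JDP2 (0.20) had the highest values and MAFK (-0.19) and MAP2K2 (-0.12) the lowest.

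**Figure D5:**
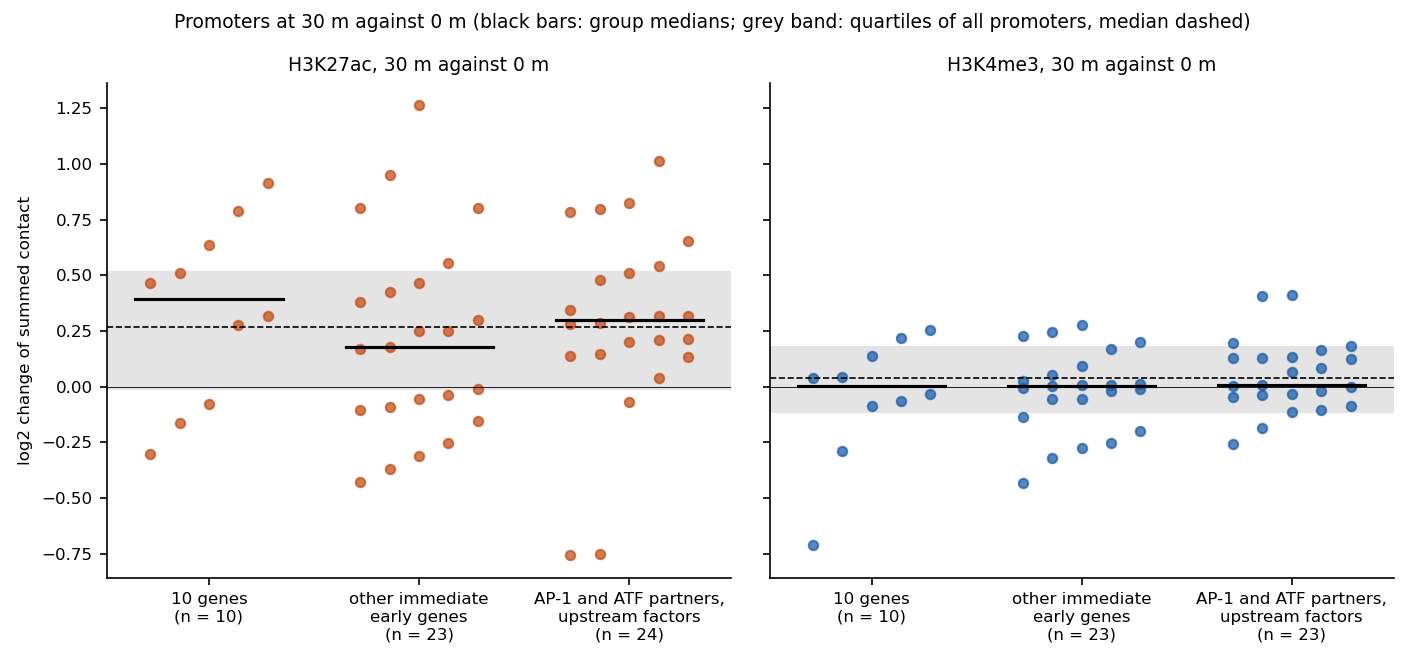
Log2 difference in contact between 30 m and 0 m for the 10 genes, the other immediate early genes and the AP-1 partners and upstream factors (1 point per gene), with the median and quartiles of all promoters, for H3K27ac and H3K4me3. The H3K27ac median was 0.39 for the 10 genes, 0.18 for the other immediate early genes and 0.30 for the partners, against 0.27 over all promoters.

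The course over all 10 tables was last compared with that of other genes. Contact was set on a log2 scale, each gene was centred within its mark, and the mean course of the 10 members was correlated with that of the 4096 promoters with enough read pairs. The highest Pearson correlations over the 10 tables were those of SRF (0.99), FLNA (0.98), BBS2 (0.98), SNX11 (0.98) and H2AC25 (0.98). The median over all 4096 was 0.68, so that most promoters shared much of this course. SRF had H3K27ac contacts of 72.3, 128.1, 70.1, 123.6 and 188.4 in time order, so that it too was high at 30 m, level with 0 m at 4 h and highest at 72 h. Among the members, IER2 (0.89), EGR1 (0.88) and FOS (0.85) were the most like the mean of the other 9, and JUN (0.25), ATF3 (0.15) and JUNB (0.14) the least. These correlations rest on 10 tables that share their depth and scaling and are given as a description.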

How the data were processed

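HiChIP of H3K27ac and H3K4me3 was made by the authors in LNCaP cells at 5 time points of DHT. Trim Galore 0.5.0, Bowtie2 and HiC-Pro 3.1.0 are named in the submitters' processing notes, with hg19 as the build, and the study's methods give FitHiChIP on merged time points for the calling of loops. The deposited contact is a signal that the authors scaled by TMM among the 5 time points of a mark. The values have 1 number per loop, mark and time point, and whether both H3K27ac replicates entered it is not given in the sources used here. All values were whole multiples of 1 step (tolerance 1e-06), and dividing by it gave read pairs. No count test was run, since no value has a replicate.

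Contact was summed over the loops of each protein-coding promoter (Gencode release 44 on GRCh37, canonical start, 2.5 kb on either side). Log2 ratios carry exact conditional (Clopper-Pearson) 95% intervals from read pairs, which cover counting error only. Read pairs without molecular identifiers are not independent molecules. A gene was called at a log2 difference of 0.5 with at least 50 read pairs. Equal totals, the own loops of a mark, loops of at least 20 kb, a window of 1 kb, 5 kb bins, all starts, a minimum of 200 read pairs and centring on the median were tried as alternatives, and centring on the median of the GC class and equal totals at the later time points were added after seeing the data. All members were named, with the strongest loop of each (3 for the 3 with most read pairs), the 2 highest and 2 lowest genes of each list with at least 200 read pairs, and the 5 genes most like the mean course. The members and lists were chosen with earlier results of these data known, and the rule of the members uses no measured value. Promoter sequences are from GRCh37, which the anchors fit, and amino acid sequences were not used. The methods were tested on simulated data. The software was Python 3.11.15 with scipy 1.17.1, pandas 2.3.3 and numpy 2.4.6.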

Additional observations from a re-analysis of the deposited data

How the results depend on the processing

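No paired analysis was possible because the tables hold 1 value per mark and time point, although the labels number 2 H3K27ac replicates. Leaving out a replicate was not possible for the same reason. Of 34 pooled values, 22 moved by less than the counting interval. The H3K27ac difference of 0.34 at 30 m against 0 m became 0.25 with equal totals, 0.47 with a window of 1 kb, which left 7 of the 10 genes with loops, and 0.42 with 5 kb bins. That of 0.37 against 4 h became 0.51 with the 1 kb window. The H3K4me3 difference of -0.20 at 30 m against 4 h became 0.0048 with equal totals, -0.13 with loops of at least 20 kb and -0.27 with the 1 kb window. With equal totals, the later differences from 0 m became 0.052 at 16 h (from 0.30) and 0.36 at 72 h (from 0.53) in H3K27ac, and 0.00060 at 4 h (from 0.22), -0.068 at 16 h (from 0.068) and 0.0073 at 72 h (from -0.12) in H3K4me3. Of 84 counts of members past the fold, 68 stayed within 1.5 times. The 4 members higher in H3K27ac at 30 m against 0 m became 2 with at least 200 read pairs, 2 beyond the median of all promoters and 1 beyond that of the GC class, and the 0 lower became 1 and 2 with the same centrings. Against 4 h, the 3 higher became 1 and 1. In H3K4me3, the 3 lower against 4 h became 1 with equal totals, 1 beyond the median and 1 beyond that of the GC class, and the 1 lower against 0 m became 0 with at least 200 read pairs. With equal totals at 16 h, the 5 higher in H3K27ac became 1 and the 0 lower became 2, and at 72 h the 6 higher became 3. In H3K4me3, the 3 higher at 4 h became 1 and the 3 lower at 72 h became 0. The cause was not tested, except that centring on a median raises or lowers the fold by construction. Of 228 values of single genes, 215 moved by less than the counting interval. In H3K27ac at 30 m, FOS ran from 0.38 to 1.17 against 0 m and from -0.37 to 0.32 against 4 h, where its direction turned with its H3K27ac set of loops only (-0.37) and with loops of at least 20 kb (-0.36). Against 0 m, FOSB ran from 0.70 to 1.48 and JUNB from 0.08 to 0.57. EGR1 stayed between 0.82 and 0.96 against 0 m, and between 0.89 and 1.09 against 4 h. FOS and FOSB had the fewest H3K27ac read pairs (438 and 403).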
